A study of Mus musculus with 12 samples.

Results

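The 8 classical complement genes described here are C1qa, C1qb, C1qc, C1ra, C1s1, C2, C4b and Serping1. They were found by symbol among the 54367 genes in each of the 2 deposited expression tables, 1 for each day, and each symbol matched 1 row per table. The retinas came from wildtype C57BL/6 mice, 8 to 12 weeks old. Under chloral hydrate anaesthesia, the right eye received laser burns to the retina (532 nm, 75 µm spot, 0.1 s, 4 positions), a procedure used to induce new vessels. The left eye of each mouse had no burns and was its control, so control libraries came from the fellow eyes of lasered mice and not from untouched animals. Retinas were taken 3 or 7 days later, and poly(A) RNA was sequenced in 12 libraries: 3 laser and 3 control libraries for each day. The labels number the libraries 1 to 3 in each group without saying whether equal numbers mark 1 mouse, or how many mice went into a library. The p-values therefore measure the spread between these samples, which may in part be technical.

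The classical pathway starts when C1q, built from A, B and C chains, binds antibody or another ligand on a surface. Its partner proteases then act in turn: C1r activates C1s, and C1s cleaves C4 and C2, whose fragments form the enzyme that cleaves C3. C1 inhibitor, the product of Serping1, inactivates C1r and C1s. In the nervous system C1q is made mainly by microglia, the resident macrophages, and complement deposited on synapses has a known part in their removal.

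C1qb, C1qc and C1qa lie side by side on the minus strand of chromosome 4 (mm10, 136880129 to 136898803, 18.7 kb in all). C1ra (124512405 to 124523443, plus strand) and C1s1 (124530345 to 124542359, minus strand) are neighbours on chromosome 6. C4b (34728380 to 34743882) and C2 (34862604 to 34898265) lie on the minus strand of chromosome 17, and Serping1 (84765387 to 84775444) on the minus strand of chromosome 2. RefSeq promoter sequences (build GRCm38.p6) matched 4 members: C1qb, C1qc, C1ra and C1s1. The windows of 250 bases upstream of each start were searched on both strands for 4 motifs of factors active in myeloid cells and inflammation. These were AGGAAGT (PU.1 and other ETS factors), the interferon response element (GAAA, 2 bases of any kind, GAAA), TTCNNNGAA (STAT factors) and TTGCNNAA (C/EBP factors). Across 32851 windows of equal length the motifs occurred in 7.69%, 2.98%, 7.02% and 9.56%, respectively. The sequences below are shown because the 2 C1q genes carry the PU.1 letters, and C1s1 the C/EBP letters, each read on the opposite strand. Capitals mark the match, and only bases upstream of the annotated gene are printed. They are chr4:136886201-136886450, chr4:136893066-136893164 and chr6:124542360-124542609, all minus strand.
C1qb: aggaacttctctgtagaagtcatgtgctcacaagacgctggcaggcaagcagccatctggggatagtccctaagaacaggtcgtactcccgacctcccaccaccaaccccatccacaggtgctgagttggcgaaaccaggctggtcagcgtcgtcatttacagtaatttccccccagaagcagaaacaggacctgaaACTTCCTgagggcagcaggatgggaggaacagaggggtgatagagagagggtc
C1qc: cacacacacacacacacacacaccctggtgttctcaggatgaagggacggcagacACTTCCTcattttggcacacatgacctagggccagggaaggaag
C1s1: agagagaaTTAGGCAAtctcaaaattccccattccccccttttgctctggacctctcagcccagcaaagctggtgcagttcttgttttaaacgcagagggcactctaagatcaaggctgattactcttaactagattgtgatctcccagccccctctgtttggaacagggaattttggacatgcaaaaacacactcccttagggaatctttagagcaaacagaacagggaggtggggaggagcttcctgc
The match lies 53 to 47 bases upstream of the RefSeq start in C1qb, 195 to 189 bases upstream in C1qc, and 242 to 235 bases upstream in C1s1. No match to the 4 motifs was found in the C1ra window or in the window of a second C1s1 start. A match is a description of letters and not a measured binding site.

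Reads assigned to genes, recovered from the deposited values, ranged from 9274356 to 12515419 in the day 3 libraries and were 23884459 to 31090406 in those of day 7. The day 3 and day 7 tables were scaled separately, and the libraries of the days differ in composition. Mitochondrial genes held 15.7% to 19.0% of the summed values in day 3 laser and 20.9% to 22.7% in day 3 control libraries, without overlap. On day 7 they held 1.10% to 4.21% in laser and 1.49% to 2.54% in control libraries. Gnat1, the rod transducin gene, was abundant in retinas of both days: its mean value was 4705 in laser and 5515 in control libraries on day 3, and 14173 and 16137 on day 7. Laser library 1 of day 3 stood apart from the other 2. Its 6 neutrophil markers summed to a value of 1097, against 3.02 and 59.2 in laser libraries 2 and 3 and 2.07 to 3.81 in the controls. The day 3 tests of the members and the count of other complement genes called are therefore given with and without it. Other day 3 values include it.

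C1qb, which encodes the B chain, was the C1q gene with the most reads on day 3. Its deposited value, a level scaled for depth and exon length, was 154, 80.3 and 92.6 in laser libraries 1, 2 and 3, and 10.7, 18.3 and 13.7 in control libraries 1, 2 and 3. Every laser library stood above every control, with 524 to 833 reads behind each laser value and 76 to 134 behind each control value. The laser effect was 2.82 ± 0.29 (SE) on the log2(value + 1) scale (95% confidence interval 2.15 to 3.496, n = 3 and 3), with limma's adjusted p of 0.0278 over 16786 genes. By day 7 the C1qb values were 121, 113 and 141 in the laser libraries and 33.2, 30.4 and 28.7 in the controls. The groups again did not overlap, and C1qb rose by 1.98 ± 0.14 (interval 1.66 to 2.31, limma's adjusted p = 0.00444 over 15592 genes).

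C1qa, the A chain gene, had day 3 values of 21.8, 7.30 and 5.84 in laser and 0.839, 0.572 and 1.54 in control libraries. The highest value was that of laser library 1, and the control values rest on only 6, 4 and 8 reads. The difference was 2.49 ± 0.45 (interval 1.43 to 3.55) and missed the threshold of 0.05 (limma's adjusted p = 0.0883). On day 7 the values were 125, 96.9 and 149 in laser and 36.6, 32.4 and 27.3 in control libraries. The day 7 groups were well apart, with 225 or more reads in each library, and C1qa rose by 1.90 ± 0.19 (interval 1.44 to 2.36, limma's adjusted p = 0.0202).

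C1qc, the C chain gene, measured 9.82, 5.84 and 4.61 in day 3 laser and 0.864, 1.40 and 1.53 in day 3 control libraries. The groups did not overlap, but the difference of 1.73 ± 0.27 missed the threshold (interval 1.09 to 2.37, limma's adjusted p = 0.0860). On day 7 its values were 54.8, 48.8 and 68.0 in laser and 17.9, 14.7 and 11.4 in control libraries. C1qc rose by 1.90 ± 0.21 on that day (interval 1.41 to 2.40, limma's adjusted p = 0.0230). Laser library 3 was the highest of the day for all 3 C1q genes.

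Leaving out laser library 1 of day 3 brought all 3 C1q genes past the threshold. Over all genes, 279 of 16396 were called higher in that fit. The effects without that library were 2.55 for C1qb (limma's adjusted p = 0.00460), 1.95 for C1qa (0.0155) and 1.46 for C1qc (0.0250). Leaving out laser library 3 or any 1 control library of day 3 left none of the 3 past the threshold. C1qb then had effects of 2.65 to 3.01 and limma's adjusted p of 0.0830 to 0.197. Those fits called 1 gene higher without laser library 3 and 0 without any 1 control library. With the replicate number as a block, the adjusted p of C1qb on day 3 was 0.150. For day 7, the effects without laser library 3 were 1.89 for C1qb, 1.76 for C1qa and 1.77 for C1qc, with limma's adjusted p of 0.0627, 0.128 and 0.163. C1qa and C1qc also missed the threshold without laser library 1 or any 1 control library (limma's adjusted p from 0.0800 to 0.140). C1qb also missed it without control library 3 (0.0534). All 3 stayed past it without laser library 2.

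**Figure D1:**
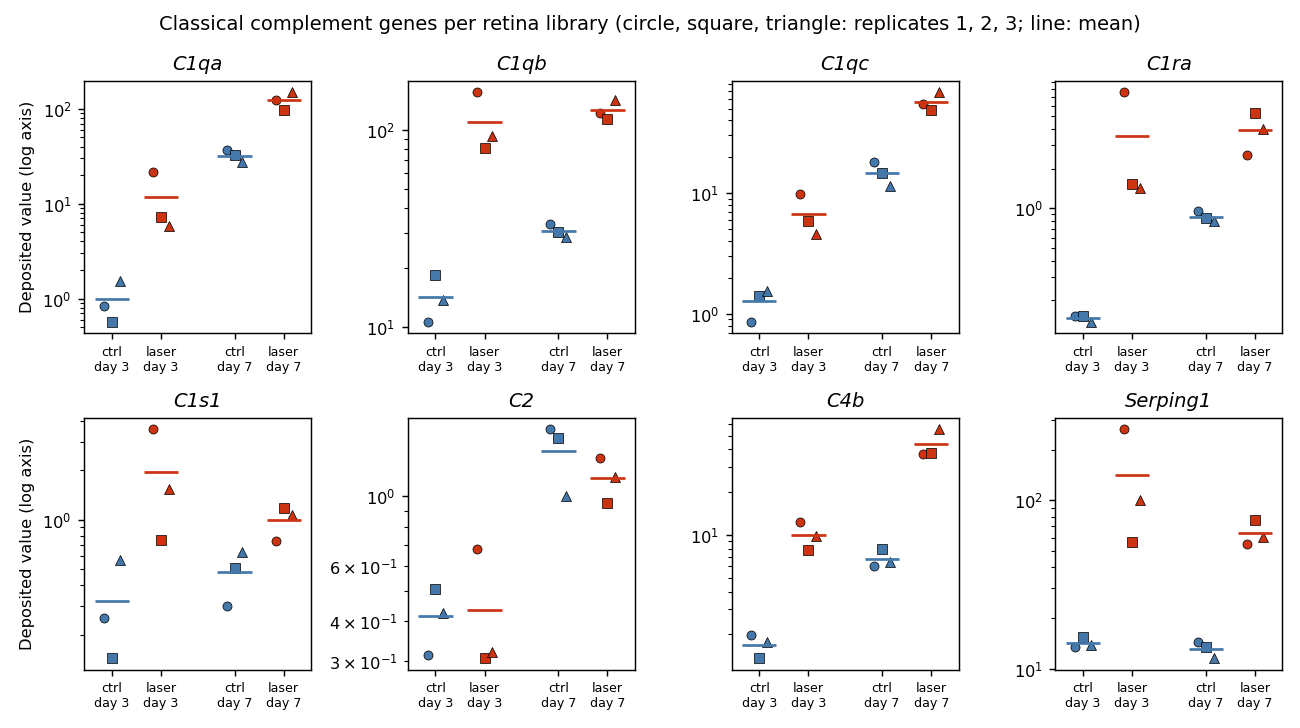
Deposited value of each classical complement gene (vertical axis, log scale, arbitrary level scaled for depth and exon length) in control and laser libraries on day 3 and day 7. Symbols are single libraries (circle, square and triangle for replicates 1, 2 and 3) and lines are group means. Laser libraries lie above controls for every gene but C2 on both days, and the circle of day 3 laser library 1 is the highest of its group for all 8 genes.

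The 3 C1q genes moved together on day 7 in a near constant proportion. The log2 ratio of C1qb to C1qa was 0.03 ± 0.16 (SD, n = 3) in laser and -0.05 ± 0.11 in control libraries. The log2 ratio of C1qc to C1qa was -1.10 ± 0.10 and -1.15 ± 0.12. On day 3 the same ratios were unlike those of day 7 in both groups. C1qb to C1qa was 3.42 ± 0.58 in laser and 3.94 ± 0.95 in control libraries, so that the ratio of group means was 9.36 and 14.5, against 1.011 and 0.958 on day 7. C1qc to C1qa was -0.60 ± 0.47 in laser and 0.44 ± 0.74 in control libraries on day 3, with no overlap (exact permutation p = 0.1, two-sided). Of 14 ratios tested over both days, none passed Benjamini-Hochberg adjustment (lowest adjusted value 0.233), and 3 against 3 libraries cannot give an exact permutation p below 0.1.

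The difference in proportion between the days was also present in eyes with no burns. Levels in those eyes differed between the days along with GC content over the genes tested on both days. Some members lay near that trend and others further from it. C1qa has a GC content of 59.5%, higher than 95.8% of the genes tested on both days, predicted and unnamed genes left out. Between control libraries of day 3 and day 7 its log2(value + 1) differed by 4.08. C1qc and C1qb, with nearly equal GC content (57.5% and 57.4%), differed by 2.78 and 1.09. With the genes tested on both days put into 10 bins of like size by GC content, that difference had a median of -1.40 in the lowest bin and 3.16 in the highest. C1qa and C1qc fell in the highest bin, and C1qb in the one below it, whose median was 1.96. C4b, C1ra and C1s1 differed by 1.53, 0.70 and 0.17, where their bins had medians of 1.96, 0.87 and 0.18. Serping1 and C2, with a GC content of 52.3% and 52.5%, differed by -0.11 and 0.75, while the bin that contains them had a median of 1.24. Time after the burn and the composition of the libraries cannot be told apart in these levels, so levels are compared here within a day. The laser effect itself varied far less with GC content: its median went from 0.12 in the lowest to 0.40 in the highest bin on day 3, and from 0.16 to -0.08 on day 7.

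**Figure D2:**
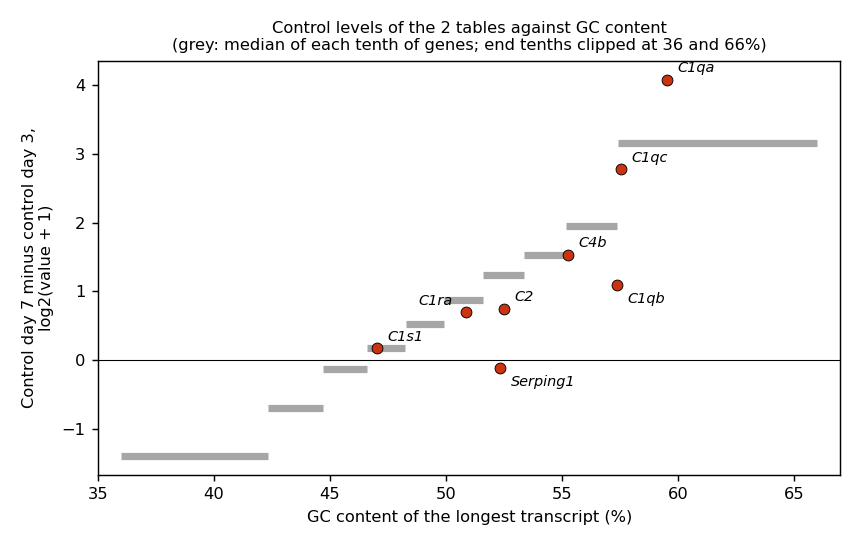
Difference between control libraries of day 7 and day 3 in log2(value + 1) (vertical axis) against the GC content of the gene's longest transcript in percent (horizontal axis). The members are labelled points, and the medians of the 10 bins of genes tested on both days run from -1.40 to 3.16. C1qa and C1qc lie toward the upper right and Serping1 near 0.

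C1ra, the gene of the protease that activates C1s, was nearly silent in day 3 controls. Its values there were 0.153, 0.152 and 0.138, from 3, 3 and 2 reads, against 7.53, 1.54 and 1.42 in the laser libraries. Summed over each group this is 166 laser against 8 control reads, a ratio of 22.1 per read total with a 95% counting interval of 10.96 to 52.1, which covers counting error only. The groups did not overlap, but laser library 1 alone held 111 of the 166 reads and the difference of 1.71 ± 0.48 missed the threshold (limma's adjusted p = 0.115). The day 7 values were 2.54, 5.28 and 4.004 in laser and 0.947, 0.849 and 0.795 in control libraries. Here laser library 2 was the highest, and the difference of 1.37 ± 0.28 (interval 0.72 to 2.02) missed the threshold (limma's adjusted p = 0.261).

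C1s1, the gene of the protease that cleaves C4 and C2, was low throughout. It measured 3.57, 0.756 and 1.55 in day 3 laser and 0.253, 0.144 and 0.568 in day 3 control libraries. The groups did not overlap, and the difference of 1.06 ± 0.37 missed the threshold (limma's adjusted p = 0.153). On day 7 its values were 0.740, 1.18 and 1.07 in laser and 0.297, 0.510 and 0.638 in control libraries, a mean below the level of 1 needed to enter the test. With no such filter the difference was 0.43 (interval -0.00 to 0.86, limma's unadjusted p = 0.0501). Without laser library 1, both C1ra and C1s1 fell below the level filter on day 3. The log2 ratio of C1s1 to C1ra was -1.95 ± 0.19 in laser and -0.91 ± 0.69 in control libraries on day 7, with no overlap (exact permutation p = 0.1, adjusted value 0.233). On day 3 it was -0.66 ± 0.68 and 0.89 ± 1.07, with overlap (exact permutation p = 0.2).

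Part of the sequence of these proteases occurs in near copies. Of the words of 50 bases in their transcripts, 50.8% for C1ra and 39.0% for C1s1 also occur in other genes, chiefly C1rb and C1s2. No source used here says how reads that match several genes were counted, so the split between copies is uncertain. C1rb itself stood at 1.90, 0.495 and 0.317 in day 3 laser and 0.126, 0 and 0 in day 3 control libraries. On day 7 it measured 0.461, 1.65 and 1.43 against 0.309, 0.420 and 0.156, below the filter on both days. C1s2 did not exceed 0.269 in any library. C1s1 also overlaps an annotated gene on the opposite strand.

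C4b, which encodes complement C4, was called higher on both days, the day 3 call depending on the libraries and the fit used. Its day 3 values were 12.3, 7.79 and 9.85 in laser and 1.97, 1.36 and 1.76 in control libraries, from 298 or more reads in each laser library. All 3 laser libraries were high, and the increase was 2.01 ± 0.20 (interval 1.55 to 2.48, limma's adjusted p = 0.0278). The day 7 values were 37.0, 37.9 and 55.4 in laser and 6.01, 8.01 and 6.40 in control libraries. That increase was 2.49 ± 0.22 (interval 1.99 to 3.00, limma's adjusted p = 0.0102), the largest effect among the members of that day. Without laser library 1 the day 3 effect was 1.86 (limma's adjusted p = 0.00749). Without laser library 3 or any 1 control library it was 1.92 to 2.09 and missed the threshold (limma's adjusted p from 0.0830 to 0.164), as it did with the replicate number as a block (0.150). The day 7 effect was 2.31 to 2.60 without laser library 3 or any 1 control library, and it missed the threshold each time (limma's adjusted p from 0.0511 to 0.0953). C4b shares 35.2% of its words of 50 bases with C4a, its near copy. C4a stood at 1.10, 0.726 and 0.930 in day 3 laser and 0.493, 0.311 and 0.366 in day 3 control libraries, below the filter. On day 7 C4a measured 2.64, 3.12 and 3.56 against 1.66, 1.35 and 1.38, a difference of 0.73 that missed the threshold (limma's adjusted p = 0.777).

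C2, whose product joins C4 in the C3-cleaving enzyme, showed no such difference. It measured 0.679, 0.305 and 0.319 in day 3 laser and 0.314, 0.507 and 0.426 in day 3 control libraries, from 7 to 13 reads each. The groups overlapped, and without the level filter the difference was 0.01 (interval -0.34 to 0.36, limma's adjusted p = 0.983). On day 7 its values were 1.32, 0.954 and 1.15 in laser and 1.63, 1.53 and 0.999 in control libraries. The groups overlapped again, with a difference of -0.15 ± 0.24 (interval -0.72 to 0.42, limma's adjusted p = 1.00). The interval leaves room for a modest change in either direction but not for one of the size seen for C4b. The log2 ratio of C2 to C4b was -4.60 ± 0.39 in laser and -2.04 ± 0.61 in control libraries on day 3, and -5.23 ± 0.39 and -2.32 ± 0.40 on day 7. Laser and control ratios did not overlap on either day (exact permutation p = 0.1 each, the smallest 3 against 3 allows). C2 shares 58.0% of its words with an overlapping annotated transcript on its own strand, so the split of reads between them is uncertain.

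**Figure D3:**
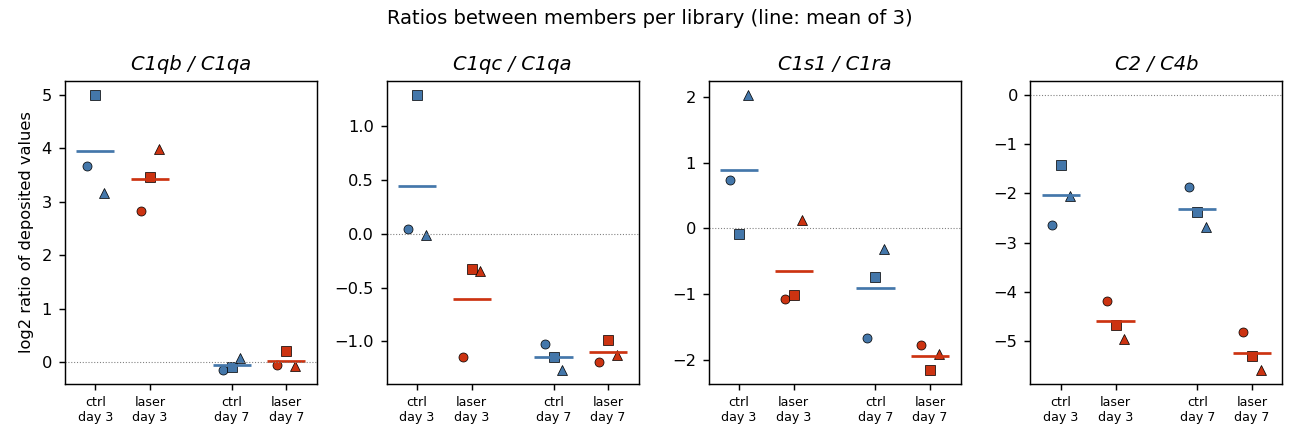
Log2 ratios of deposited values between pairs of members (vertical axis) in each control and laser library of day 3 and day 7, with lines at the mean of 3. The C1qb to C1qa ratio differs between days in both groups, and the C2 to C4b ratio is lower in every laser library than in every control of its day.

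Serping1, the gene of C1 inhibitor, had the highest mean of the 8 genes in day 3 laser libraries. Its values were 265, 56.7 and 100.9 in laser and 13.5, 15.5 and 13.8 in control libraries. The controls were tightly grouped while the laser libraries spread widely, and the difference of 2.93 ± 0.49 (interval 1.77 to 4.09) missed the threshold (limma's adjusted p = 0.0883). Without laser library 1 it was 2.33 and passed (limma's adjusted p = 0.00818). The day 7 values were 55.1, 76.0 and 60.5 in laser and 14.3, 13.5 and 11.5 in control libraries. Serping1 rose by 2.19 ± 0.18 (interval 1.78 to 2.60, limma's adjusted p = 0.00785), and without laser library 3 the effect was 2.22 (0.0806). Without control library 2 or 3 Serping1 also missed the threshold on day 7 (limma's adjusted p = 0.0511 and 0.0638). None of its transcript's words of 50 bases, nor those of the 3 C1q genes, occur in another gene. The log2 ratio of Serping1 to C1s1, inhibitor to target, was 6.02 ± 0.20 in laser and 4.83 ± 0.71 in control libraries on day 7, without overlap (exact permutation p = 0.1, adjusted value 0.233). On day 3 it was 6.15 ± 0.12 and 5.70 ± 1.08, with overlap (exact permutation p = 0.7).

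In all, 2 of the 7 members tested on day 3 rose (C1qb and C4b), where 0.143% of the 16786 genes tested were called higher. On day 7, 5 of 7 rose (C1qa, C1qb, C1qc, C4b and Serping1), where 0.237% of 15592 genes were called higher. No member was called lower on either day. All 3 laser libraries stood above all 3 controls for 7 of the 8 members on day 3 and again on day 7. That pattern was held by 27.7% of the genes tested on day 3 and 6.78% of those tested on day 7. The 8 members include C2 on day 3 and C1s1 on day 7, which were below the filter and not tested, and C1s1 is among the 7 of day 7. The median effect of the members tested was 2.01 on day 3 and 1.90 on day 7, against 0.16 and 0.06 over all genes tested. These medians leave out C2 on day 3 and C1s1 on day 7. C1qa, C1ra and C1s1 on day 3 and C1ra on day 7 passed the filter only through their laser values. Their control means were 0.985, 0.148, 0.322 and 0.864, so the medians describe members chosen in part by their laser level. Rescaling the day 3 libraries by median of ratios moved the median of all genes from 0.16 to -0.02. C1qb and C4b stayed past the threshold under it, with effects of 2.60 (limma's adjusted p = 0.0477) and 1.84 (0.0332). On day 7 the same rescaling ended the calls of C1qa and C1qc (limma's adjusted p = 0.0660 for each) and left 3 of 5. The day 3 count fell to 0 with a pseudocount of 5, with no level filter, with the replicate number as a block, and without laser library 3 or any 1 control library. Over all genes, these day 3 fits called 1 higher without laser library 3 and 0 in every other case. The day 7 count stayed at 5 with the block, where 52 of 15592 genes were called higher. It was 0 without laser library 3 or control library 3, where 0 of all genes were called higher.

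**Figure D4:**
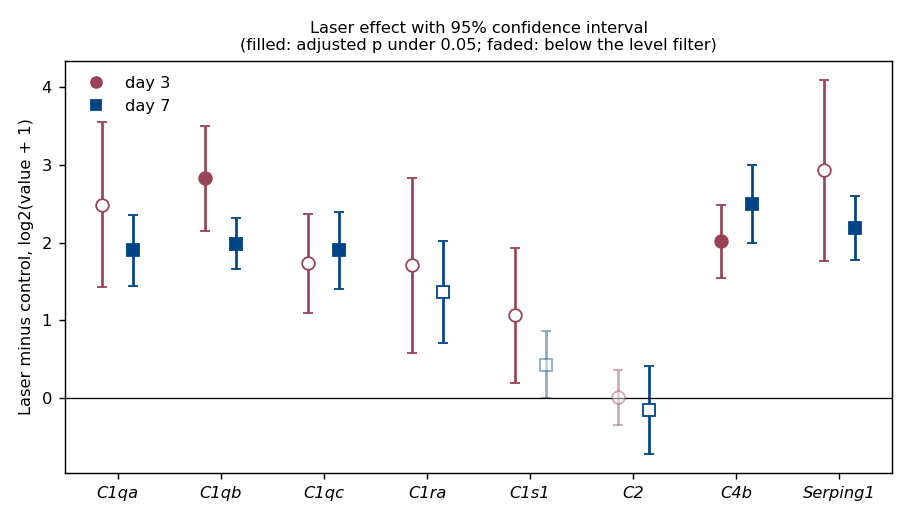
Laser minus control difference on the log2(value + 1) scale (vertical axis) for each member on day 3 and day 7, with 95% confidence intervals. Filled symbols had an adjusted p under 0.05 and faded ones were below the level filter. C2 lies near 0 on both days, at 0.01 and -0.15, and the other 7 genes lie between 0.43 and 2.93.

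The order of levels, which are scaled for exon length, differed between laser and control retinas. C2 stood lower in the order in laser libraries of both days, though its own values overlapped between the groups, and C1ra stood above it. The other genes that changed place overlapped with those they passed. In day 3 controls Serping1 (14.3 ± 1.09, SD, n = 3) and C1qb (14.2 ± 3.83) were highest and overlapped. C4b, C1qc and C1qa followed at 1.70, 1.27 and 0.985, with C2, C1s1 and C1ra at 0.416, 0.322 and 0.148. In day 3 laser libraries Serping1 (141 ± 110) and C1qb (109 ± 39.5) again overlapped at the top, and C2 was last at 0.435 ± 0.212, below C1s1 at 1.96 ± 1.45 without overlap. Between them C1qa, C4b, C1qc and C1ra, at 11.6, 9.997, 6.76 and 3.497, each overlapped with the next. In day 7 controls C1qa (32.1 ± 4.65) and C1qb (30.8 ± 2.25) overlapped at the top, then came C1qc (14.7 ± 3.29) and Serping1 (13.1 ± 1.44), which also overlapped, and C4b (6.81 ± 1.06). C2, C1ra and C1s1 ended the order at 1.39, 0.864 and 0.482. In day 7 laser libraries C1qb (125 ± 14.6) and C1qa (124 ± 25.9) led. Serping1 (63.9 ± 10.9), C1qc (57.2 ± 9.81) and C4b (43.4 ± 10.4) each overlapped with the next. C1ra (3.94 ± 1.37) then stood apart from C2 and C1s1 at 1.14 and 0.997.

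Whether the laser effect differed between the days was tested as an interaction over all 12 libraries. No member passed, and 0% of the 17611 genes tested were called (0 genes at limma's adjusted p under 0.05, 1654 at an unadjusted p under 0.05). Of the 6 members tested, C1qb came closest, with a day 7 effect smaller than its day 3 effect by 0.84 (difference -0.84, interval -1.59 to -0.09, limma's adjusted p = 0.481). The difference was -0.74 for Serping1 (interval -1.99 to 0.51), -0.59 for C1qa (interval -1.76 to 0.58) and 0.48 for C4b (interval -0.18 to 1.14). C1qc had 0.17 (interval -0.62 to 0.97) and C1ra -0.34 (interval -1.58 to 0.91). The log2(value + 1) scale compresses differences of low genes, and the mean control value of every member but Serping1 was lower on day 3. With a pseudocount of 0.1 the differences were -0.89 for C1qb, -0.74 for Serping1, -1.36 for C1qa and 0.16 for C4b. C1qc then had -0.32 and C1ra -1.42, and none passed (limma's adjusted p from 0.406 to 0.968). The intervals above are wide, so effects that were alike or unlike on the 2 days are not distinguished.

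Few other complement genes passed the test. Of 67 such genes in a list of relatives, lectin, alternative and terminal components, regulators, receptors and C1q ligands, 30 were tested on day 3 and none passed. On day 7, 27 were tested and 1 rose. In that order of days, 26 and 17 had a positive difference, with medians of 0.48 and 0.10, and 11 and 6 had limma's unadjusted p under 0.05. Over all genes tested the medians were 0.16 and 0.06. Of all genes, 3861 of 16786 and 614 of 15592 had an unadjusted p under 0.05, and 0.143% and 0.237% were called higher. The gene that rose was Clu, which encodes clusterin, an inhibitor of the terminal complex: its day 7 values were 2244, 2200 and 2386 in laser and 1022, 885 and 1120 in control libraries. Its increase was 1.18 ± 0.16 (limma's adjusted p = 0.0444), and on day 3 the difference was 1.17 ± 0.18 (0.0853). In the fit without laser library 1, 279 of 16396 genes were called higher on day 3. Of the list, 4 passed in it (Clu, C3ar1, C5ar1 and Itgb2). On day 7 none did without laser library 1 or 3 or any 1 control library, and 2 did (Clu and Itgb2) with the replicate number as a block.

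C3, the component cleaved by the classical enzyme, stood at 15.97, 1.15 and 3.16 in day 3 laser and 1.00, 0.939 and 0.842 in day 3 control libraries. Most of that excess was in laser library 1, and the difference of 1.47 ± 0.67 missed the threshold (limma's adjusted p = 0.243). On day 7 C3 measured 4.02, 6.63 and 8.04 against 2.15, 2.20 and 1.67, a difference of 1.23 ± 0.28 (0.365). Cfb, the C2 counterpart of the alternative pathway, reached 3.42 in day 3 laser library 1 and stayed at or below 0.521 in the other 11 libraries. The 9 lectin pathway genes were all below the filter on both days, and of 7 terminal components only C8g was tested, with differences of -0.25 and -0.09. Among receptors, C5ar1 (receptor of C5a) and C3ar1 (receptor of C3a) had day 3 differences of 2.75 (limma's adjusted p = 0.0977) and 2.23 (0.0915), as large as those of several members (C5ar1 was named after its values were seen). Also among them, Itgb2 (a chain of complement receptor 3) had 2.10 on day 3 (limma's adjusted p = 0.122) and 1.67 on day 7 (0.0512). Of regulators, Cfi (factor I, which cleaves C4b and C3b) had 0.97 on day 3 (limma's adjusted p = 0.176) and 1.06 on day 7 (0.687). C1rl, a relative of C1r, had a day 3 difference of 0.96 (0.0964). Antibody genes, whose products bind C1q, were low: Ighm had 0.47 and 0.79, and Ighg2c -0.46 and -0.16, none past the threshold.

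Of genes within 50 kb of the 4 member loci, none of those tested was called on either day. At the C1q locus 0 of 2 were tested on day 3 and 2 on day 7. The other loci had 2, 7 and 5 tested on day 3 (C1r and C1s, C4 and C2, Serping1) and 2, 9 and 4 on day 7. Only 0.143% and 0.237% of all genes were called higher, so the lack of calls does not show that neighbours were unchanged. The widest difference among the neighbours tested was that of Ube2l6, beside Serping1 (chromosome 2, 84798828 to 84810335), with 1.84 on day 3 (limma's adjusted p = 0.0883) and 1.37 on day 7 (0.131). Ube2l6 was also among the 5 genes most like Serping1 over 12 libraries, centred on the mean of their day. The others were Serpina3n, Cd68, Parp3 and Pdpn, with Pearson r from 0.985 to 0.989 over 10475 genes compared. The 5 genes most like the mean of C1qa, C1qb and C1qc were Rfx2, Edn2, Bcl3, Fgf2os and Scara3, with r from 0.981 to 0.984. Laser library 1 of day 3 and the laser contrast are common to all of these correlations.

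In bulk retina, more cells of a type and more RNA per cell cannot be told apart, and marker genes moved with the members. The 12 microglial markers summed to 85.3 to 103 in day 3 laser and 40.4 to 43.7 in control libraries, and to 129 to 171 and 68.5 to 73.3 on day 7. Of those tested, 1 of 10 rose on day 3 (Fcrls) and 2 of 9 on day 7 (Fcrls and Csf1r). The defining microglial markers were not called: P2ry12 had a day 3 difference of -0.40, Tmem119 a day 7 difference of 0.31, and Cx3cr1 0.62 and 0.96. The 11 markers of monocytes and macrophages summed to 204 to 2028 in day 3 laser and 38.9 to 44.5 in control libraries, and to 101 to 142 and 15.3 to 29.7 on day 7. None of 9 tested passed on day 3 and 2 of 4 rose on day 7 (Lyz2 and Cd68). Ccr2, a defining marker of recruited monocytes, was at 0 in all controls of both days, at 8.32 in day 3 laser library 1 and at 0.313 or below in the other laser libraries.

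Glial and interferon markers moved too. The 6 reactive glia markers summed to 276 to 5683 in day 3 laser and 30.7 to 43.2 in control libraries, and to 430.0 to 552 and 122 to 145 on day 7. Of those tested, 1 of 6 rose on day 3 (Gfap) and 2 of 5 on day 7 (Gfap and Serpina3n). The 10 interferon response genes summed to 486 to 4650 against 68.8 to 90.1 on day 3 and to 183 to 367 against 74.5 to 94.7 on day 7. None of 10 passed on day 3 and 1 of 10 rose on day 7 (Bst2). Laser library 1 was the highest on day 3 for all 5 of these summed lists, neutrophils included, and for all 8 members. On day 7 laser library 2 was highest for the microglial, monocyte, glial and interferon sums, and also for C1ra, C1s1 and Serping1. Laser library 3 was highest for the 3 C1q genes and C4b, and laser library 1 for C2. On day 7 the neutrophil sum was 0.597 or less in every library, with Ly6g and Elane at 0 throughout. Fibroblast markers were low, at 2.25 to 10.96 in day 3 laser and 2.94 to 3.83 in control libraries. The 5 liver markers summed to 40.8 to 501 in day 3 laser and 240 to 355 in control libraries, and to 321 to 655 and 210 to 589 on day 7. None of the 2 tested on day 3 or the 1 on day 7 was called. Nearly all of that sum was Ttr, which pigment epithelium also expresses, while Alb, Serpina1a and Fgb were at 0 in every day 3 library. The part of these cell types in the differences of the members was not tested.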

How the data were processed

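Poly(A) RNA of 12 retina libraries was sequenced, and the authors deposited a signal for each gene, which they call TPM, in 1 table per day. Column sums ran from 953049 to 1045986, so the signal was not treated as strict TPM, and the test planned for TPM was kept. The submitters' processing notes list STAR 2.7.0, edgeR 3.28.0 and mm10, with no roles. For the counter, strand setting and annotation: not given in the sources used here. Values multiplied by GENCODE M21 exon length came out as whole reads within 0.05 for 98.9% to 99.2% of values under 20 reads, after a factor with 6 values that cycles through the rows was taken out. A count of 3 reads in 1 kb of exons equals 0.445 to 0.606 on day 3 and 0.292 to 0.380 on day 7. The day tables were scaled separately and fitted separately.

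limma 3.58.1 in R 4.3.3 (lmFit, eBayes with trend) was run two-sided on log2(value + 1), keeping genes whose mean was 1 or more, Benjamini-Hochberg over all genes tested, threshold 0.05. Fold changes on this scale understate those of low genes. The fit was tested on simulated data. Within C1, C4b and C2, log2 ratios were compared by exact permutation. Figures were drawn with matplotlib 3.10.9, and tables were made with pandas 2.3.3 and NumPy 2.4.6 under Python 3.11.15. Laser and control libraries of equal number deviated together on day 7 for numbers 1 and 2 (correlations 0.485 and 0.559). Number 3 (0.128) did not stand above unequal numbers, which ran from -0.533 to 0.205. On day 3 equal numbers did not exceed 0.1 (0.041, 0.016 and 0.077), and the labels do not say that they mark 1 mouse. The members and gene lists were chosen with earlier results of these data known. Named genes were all members, their near copies, C3 and Cfb, list genes past the threshold or with the smallest p of their group, the defining markers, and the 5 genes most correlated with C1q or Serping1. Alternatives covered pseudocount, filter, scaling, library weights, replicate block, a joint fit and leaving out each library, and 4 were added after seeing the data.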

Additional observations from a re-analysis of the deposited data

How the results depend on the processing

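Few reads limit C1qa, C1ra, C1s1 and C2 on day 3, and 3 libraries per group limit every call. The count of members called higher on day 3, 2 in the report, was 0 with a pseudocount of 5, 0 with no filter on low values, 5 with library weights and 6 of 6 tested in a joint fit of 12 libraries. Over all genes, 24 of 16786 were called higher in the report. That number was 0 with that pseudocount or no filter, 363 with library weights and 998 of 17611 in the joint fit. In a fit with the replicate block the count of members was 0 on day 3 and stayed at 5 on day 7. All genes called higher in it were 0 and 52. After seeing the data, trends with GC content were removed, which gave 1 member on day 3, or 0 together with the replicate block. All genes called higher were then 11 and 0. Leaving out 1 library at a time gave 0 to 5 members on day 3: 5 without laser replicate 1, 3 without laser replicate 2 and 0 without any other library. Over all genes, 279 of 16396 were called higher without laser replicate 1 and 26 of 16775 without laser replicate 2. Without any other library 0 or 1 was. The day 7 count of members, 5 in the report, was 3 with no filter, 3 with median-of-ratios rescaling, 3 in the joint fit and 3 with voom on recovered reads, an alternative added after seeing the data. All genes called higher were 37 in the report, and in that order 12, 23, 20 and 18. Leaving out 1 library gave 0 to 5 members on day 7: 3, 5 and 0 without laser replicates 1, 2 and 3, and 2, 1 and 0 without control replicates 1, 2 and 3. All genes called higher in the same order were 11, 39 and 0, and 9, 6 and 0. No member's interaction passed in the report, and 1 did with library weights (C4b, difference 1.03, limma's adjusted p = 0.0205). That weight estimation stopped before convergence in some fits. Of the other complement genes, 0 passed on day 3 in the report, 2 with library weights, 5 in the joint fit and 0 to 4 with 1 library left out. The 1 that passed on day 7 became 0 with a pseudocount of 5, no filter, median-of-ratios rescaling, the cyclic factor undone (added after seeing the data), or the replicate block with GC trends removed. It became 2 with library weights, GC trends removed or the replicate block, and 0 to 1 with 1 library left out. The ratios between members used no filter, pseudocount or scaling, and they were not recomputed with libraries left out.

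No member's difference that passed the threshold changed sign. Those that changed sign were C2 on day 7 (0.15 with library weights) and 3 interactions. C1qa had 0.42 with a pseudocount of 5 and 0.23 with library weights. C1qc had -0.32 with a pseudocount of 0.1, and -0.034 to 0.44 when 1 library was left out, the lowest without day 3 laser replicate 3. C1ra had 0.18 with library weights, and -0.65 to 0.26 when 1 library was left out, the highest without day 3 laser replicate 1. The cause was not tested.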
